A study of Mus musculus with 4 samples.

Results

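The genes described here are Grb2, Sos1, Sos2, Nras, Hras, Braf and Map2k1, which carry a signal from growth factor receptors through Ras to the MAP kinase cascade. These 7 genes were chosen by name, of 25050 genes in the table, with the normalised read counts of the same 4 libraries already known. Their differences between groups and between libraries are therefore given as a description, without a test. All 7 had a mean of 10 normalised reads or more, the minimum for entry into the fit over all genes, and 15540 genes were so tested. RNA was sequenced from HT-22, an immortalised mouse line labelled as hippocampal neuron, at passages 21 to 24. One group, of 2 libraries, came from cells overexpressing Nsmce1, which encodes a RING-type subunit of the SMC5/6 chromosome maintenance complex. The other group, also of 2 libraries, came from cells labelled wild type, which the study's text also calls cells without induction of an inducible Nsmce1. Separate cultures are not mentioned in the labels, and the spread that the p-values rest on may be technical.

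Receptor tyrosine kinases that have bound a growth factor recruit Grb2, an adaptor that brings the exchange factors Sos1 and Sos2 to the membrane. Sos proteins load Ras GTPases, among them Nras and Hras, with GTP, and Ras with GTP activates RAF kinases such as Braf. RAF phosphorylates the MEK kinases, encoded by Map2k1 and Map2k2, and MEK phosphorylates the ERK kinases. The cascade is controlled largely by phosphorylation and GTP loading of the proteins, which mRNA levels do not measure.

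The whole reads behind the normalised values came to 32516117 and 44602989 in the overexpression libraries and to 25787452 and 31010351 in the wild type libraries. Nsmce1 itself had 17851 and 16525 normalised reads in overexpressing cells, against 1108 and 1206 in wild type cells. Its limma log2 fold change was 3.89 (SE 0.0856, adjusted p = 9.07e-05), in the direction of the labels. Of 21 neuronal markers, only 4 reached a mean of 10 normalised reads, namely Tubb3, Syp, Syn1 and Camk2a, and 8, among them Rbfox3 and Map2, had no row in the table. Their summed level was 1551 to 1909 normalised reads in overexpressing and 1715 to 1960 in wild type cells. Of 11 fibroblast markers 10 reached that mean, and their sum was 498514 to 572688 in overexpressing and 529193 to 591098 in wild type cells. The label hippocampal neuron was thus matched by few of its defining markers. The summed astrocyte markers (3 of 7 measured at that mean) were 4274 to 4568 in overexpressing and 3043 to 3389 in wild type cells, and those of microglia and leukocytes (3 of 8) were 1643 to 1787 in overexpressing and 1970 to 2338 in wild type cells. Most of these sums came from Slc1a3 and Tmem119, and the other markers did not follow them. Aldh1l1 had 14 and 12.4 normalised reads in overexpressing and 57.8 and 65.3 in wild type cells, and Aldoc had 8 and 10.2 in overexpressing and 21.4 and 21.1 in wild type cells. Cd68 had 132 and 101 in overexpressing and 88.0 and 70.6 in wild type cells, and Aif1 had 65 and 40.1 in overexpressing and 46.5 and 67.4 in wild type cells. The astrocyte gene Gfap and the leukocyte gene Ptprc were below 10 in every library. The part of these shifts in the values of the 7 genes was not tested.

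The coding sequences of family members were compared first, because reads from near-identical stretches can be assigned to either gene. Map2k1 and its paralogue Map2k2 shared the longest run among the member families, 56 bases from coding base 391 of Map2k1. It is shown with 10 bases on each side, and capitals mark the bases that differ from Map2k1.
Map2k1: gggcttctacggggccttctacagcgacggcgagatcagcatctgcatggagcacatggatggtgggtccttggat
Map2k2: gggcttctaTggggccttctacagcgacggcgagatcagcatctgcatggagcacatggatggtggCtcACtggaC
Sos1 and Sos2 shared at most 32 bases in a row, and Braf shared at most 17 with Araf. Words of 50 bases were compared between annotated transcripts in the transcribed orientation only, so sharing with opposite-strand genes was not searched. In that orientation, 0% of the words of Hras, Sos1 and Braf also occurred in another gene. That share was 0.207% for Map2k1, all with Map2k2, 0.661% for Nras, 1.02% for Sos2 and 7.54% for Grb2. The Grb2 words were shared with 2 processed pseudogenes, Gm12791 and Gm13542. Gm12791 had 30.0 and 29.9 normalised reads in overexpressing and 26.4 and 30.5 in wild type cells, and Gm13542 had 0 in both overexpression libraries and 0 and 3.16 in the wild type libraries. Both copies were far below Grb2 itself, and how such reads were counted is not stated.

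The bases just upstream of Nras and Hras, the Ras genes among the 7, are shown as a description of the reference. Reference bases are the same for every library, and their part in the measured values was not tested. Hras, on chromosome 7, begins 151 bases from the start of Lrrc56, which lies on the opposite strand. The 98 bases before Nras and the 151 bases before Hras are printed from the RefSeq promoter windows of GRCm38.p6, on the strand of the Ras gene, at chr3:103058187-103058284 (plus) and chr7:141194006-141194156 (minus). Capitals mark the GC box GGGCGG or its reverse complement CCGCCC, a match to the letters that general promoter factors of the Sp1 family are known to bind.
Nras upstream: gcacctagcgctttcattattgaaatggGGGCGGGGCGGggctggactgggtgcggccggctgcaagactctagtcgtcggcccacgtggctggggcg
Hras upstream: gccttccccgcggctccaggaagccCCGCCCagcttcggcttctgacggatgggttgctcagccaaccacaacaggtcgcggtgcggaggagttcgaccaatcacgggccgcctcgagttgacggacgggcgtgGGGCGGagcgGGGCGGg
The stretch before Nras held 2 such matches, which overlap, and that before Hras held 3. GC boxes on either strand were found in 35.7% of all 32851 mouse promoter windows of 300 bases, and in 5 of the 8 windows of the 7 genes. The genome build differs from mm9, which the submitters' processing notes name, so these positions describe the reference and not the deposited values.

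Grb2 (ENSMUSG00000059923, chromosome 11), the adaptor at the head of the pathway, had 3268 and 3616 normalised reads in the overexpression libraries, against 3246 and 1619 in the wild type libraries. Wild type replicate 2 stood apart, at a level 2.01-fold below wild type replicate 1, and wild type replicate 1 lay just below the lower overexpression library. The 95% counting interval of that low value was 1539 to 1702 normalised reads, and those of the other libraries did not reach below 3122. Such intervals cover counting error only, and over all genes replicates differed by more than that. The group means were 3442 ± 246 in overexpressing and 2432 ± 1150 in wild type cells (SD, n = 2 each). The log2 fold change was 0.58 (SE 0.300), but it was 0.083 without wild type replicate 2 and 1.09 without wild type replicate 1. The size of the difference between the groups thus rested on a single library. In such bulk RNA, fewer expressing cells and less RNA per cell cannot be told apart.

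Sos1 (ENSMUSG00000024241, chromosome 17), the more abundant of the exchange factors that Grb2 recruits, had 3523 and 3518 normalised reads in overexpressing and 3663 and 3508 in wild type cells. The 4 libraries lay within 1.04-fold of each other, the closest agreement among the 7 genes. Its log2 fold change was -0.03 (SE 0.0753). Sos2 (ENSMUSG00000034801, chromosome 12) had 958 and 1004 normalised reads in overexpressing and 892 and 1078 in wild type cells. The overexpression libraries lay between the wild type libraries, with means of 981 ± 32.3 in overexpressing and 985 ± 132 in wild type cells (SD, n = 2 each). The log2 fold change of Sos2 was 5.61e-05 (SE 0.123).

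Nras (ENSMUSG00000027852, chromosome 3), a Ras GTPase, had 4079 and 4143 normalised reads in the overexpression libraries, against 1680 and 3618 in the wild type libraries. Here wild type replicate 1 was the low library and the other 3 lay together. Its 95% counting interval was 1591 to 1773 normalised reads, below that of wild type replicate 2, which was 3498 to 3741. Here too the intervals leave out the spread between replicates. The group means were 4111 ± 45.0 in overexpressing and 2649 ± 1370 in wild type cells (SD, n = 2 each). The log2 fold change of 0.74 (SE 0.325) was 0.18 without wild type replicate 1 and 1.29 without wild type replicate 2. As for Grb2, the size of the difference rested on 1 wild type library, here the other one.

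Hras (ENSMUSG00000025499, chromosome 7), another Ras GTPase, had 1265 and 1380 normalised reads in overexpressing and 1231 and 1343 in wild type cells. The groups overlapped, with means of 1322 ± 81.1 in overexpressing and 1287 ± 79.0 in wild type cells (SD, n = 2 each) and a log2 fold change of 0.04 (SE 0.10). Lrrc56, which starts on the opposite strand beside Hras, had 147 and 124 normalised reads in overexpressing and 145 and 140 in wild type cells.

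Braf (ENSMUSG00000002413, chromosome 6), a RAF kinase, had 2942 and 2829 normalised reads in overexpressing and 2660 and 2418 in wild type cells. Both overexpression libraries were above both wild type libraries, with means of 2885 ± 80.1 in overexpressing and 2539 ± 171 in wild type cells (SD, n = 2 each). The log2 fold change was 0.19 (SE 0.0870), and it ranged from 0.12 to 0.25 when 1 library was left out. Ndufb2, a respiratory chain subunit gene that overlaps Braf on the opposite strand, had 621 and 685 normalised reads in overexpressing and 636 and 725 in wild type cells. Reads of such a pair can be exchanged if strand was not used in counting, and the sources used here do not say whether it was. Map2k1 (ENSMUSG00000004936, chromosome 9), the MEK kinase MEK1, had 3160 and 2804 normalised reads in overexpressing and 2648 and 2806 in wild type cells. The groups overlapped, since the lower overexpression library was level with the higher wild type library. The means were 2982 ± 252 in overexpressing and 2727 ± 111 in wild type cells (SD, n = 2 each), and the log2 fold change was 0.13 (SE 0.0932). Uchl4, which overlaps Map2k1 on the opposite strand, had 18 and 10.2 normalised reads in overexpressing and 15.1 and 20.01 in wild type cells.

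**Figure D1:**
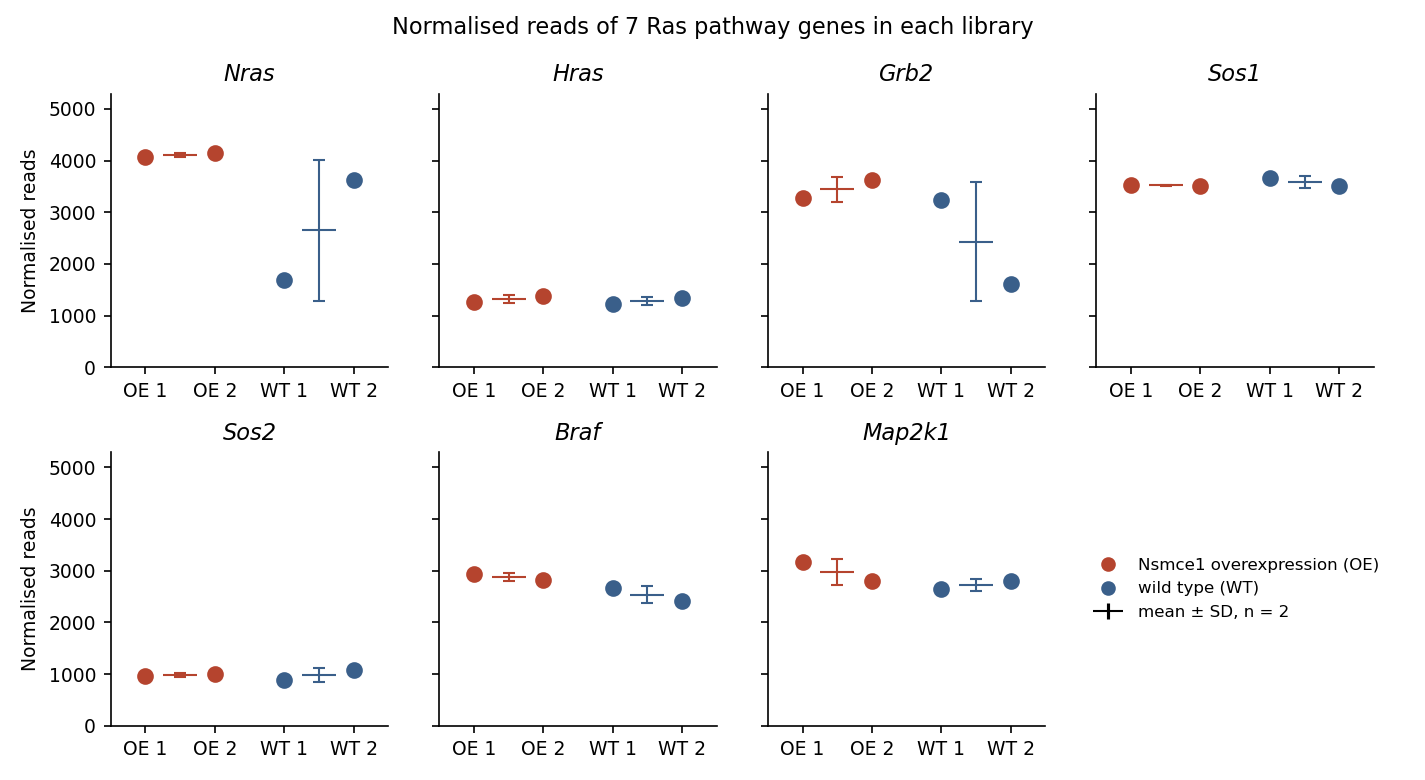
Normalised reads (vertical axis) of each of the 7 genes in the 2 libraries of Nsmce1 overexpression (OE, red) and the 2 of wild type (WT, blue), with the mean and SD of each group between its points. Nras has its low value of 1680 in wild type replicate 1 and Grb2 its low value of 1619 in wild type replicate 2, while the libraries of the other 5 genes lie close together.

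Of the 7 genes, 3 (Nras, Grb2 and Braf) had both overexpression libraries above both wild type libraries, 4 overlapped and 0 lay lower in both. Such a separation upwards was seen in 20.8% of all 15540 tested genes. That of Grb2 was marginal, at 3268 normalised reads in overexpression replicate 1 against 3246 in wild type replicate 1, with overlapping counting intervals. In TPM the order of these libraries was reversed, at 94.16 in overexpression replicate 1 and 94.18 in wild type replicate 1. The median of the 7 log2 fold changes was 0.13, with 6 above and 1 below 0, beside a median of 0.01 over all tested genes, of which 51.3% were above 0. None of the 7 genes was called by the fit over all genes (limma, Benjamini-Hochberg adjusted p under 0.05), which called 30 genes or 0.193% of those tested. At an unadjusted limma p under 0.05 the count was also 0 of 7, beside 1230 or 7.92% of all tested genes, and it was 0 with limma voom on the whole reads as well. Since the members were chosen with these values known, nothing is read from the counts.

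The gap inside the wild type group was the feature that set Nras and Grb2 apart from the other 5 genes. The wild type libraries differed 2.15-fold for Nras and 2.01-fold for Grb2, in opposite directions, while the overexpression libraries differed 1.02-fold and 1.11-fold. The other 5 genes had wild type gaps from 1.04-fold for Sos1 to 1.21-fold for Sos2. Of the 11650 genes with a mean of at least 100 normalised reads, 124 or 1.06% had wild type libraries at least 2-fold apart, and 134 or 1.15% had overexpression libraries so far apart. The limit of 2-fold was set after the values were seen, and Grb2 lies just inside it. The low values of Nras and Grb2 thus lay in different wild type libraries. Their part in the group differences of other genes was not tested.

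**Figure D2:**
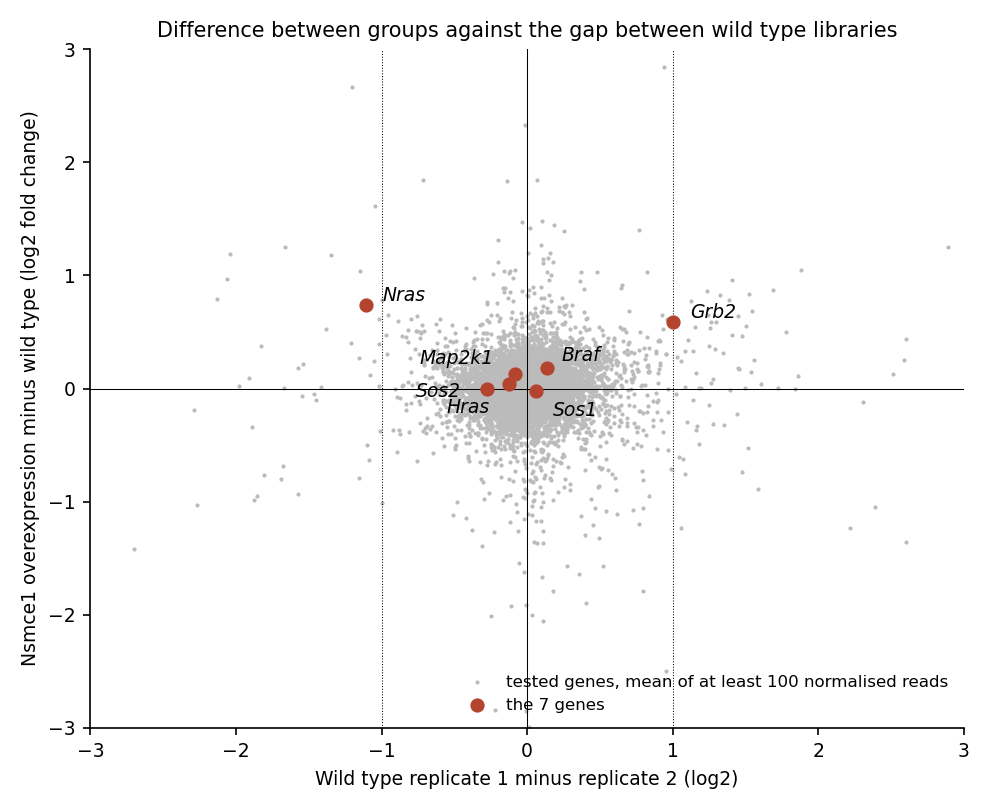
Log2 fold change of Nsmce1 overexpression over wild type (vertical axis) against the log2 difference between wild type replicates 1 and 2 (horizontal axis) for 11650 genes with a mean of at least 100 normalised reads (grey) and the 7 genes (red). Both axes use the wild type values. Nras and Grb2 lie at the dotted lines of a 2-fold gap, on opposite sides, and the other 5 lie near the centre. 21 genes fall outside the axes.

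Levels of different genes were compared per length, as TPM, the library share of a gene's reads scaled by its exon length in the reference annotation. By the median of the 4 libraries, Grb2 was highest among the 7 genes, with 94.2 and 104 TPM in overexpressing and 94.2 and 45.2 in wild type cells. Map2k1 followed with 69.6 to 78.3 TPM in overexpressing and 66.1 to 67.4 in wild type cells. Nras had 64.3 and 65.4 TPM in overexpressing and 26.7 and 55.3 in wild type cells. Then came Hras at 27.9 to 31.1, Sos1 at 27.0 to 29.3, Braf at 14.2 to 17.8 and Sos2 at 8.86 to 10.3 TPM over all libraries. The ranges of Grb2 and Map2k1, of Nras and Hras, and of Hras and Sos1 overlapped, so the order within these pairs is not settled by the libraries. Those of Map2k1 and Nras, Sos1 and Braf, and Braf and Sos2 did not overlap.

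The distance between the 2 Ras genes differed between the libraries. In the overexpression libraries Nras, at 64.3 and 65.4 TPM, was above Hras, at 28.5 and 31.1. In wild type replicate 2 Nras was likewise higher, at 55.3 TPM against 29.3 for Hras. In wild type replicate 1 they were not distinguished, with Nras at 26.7 TPM (95% counting interval 25.3 to 28.1) and Hras at 27.9 TPM (26.2 to 29.7). Braf was below Araf, another RAF kinase gene, in every library, with Araf at 29.0 to 31.4 TPM in overexpressing and 27.3 to 33.7 in wild type cells.

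**Figure D3:**
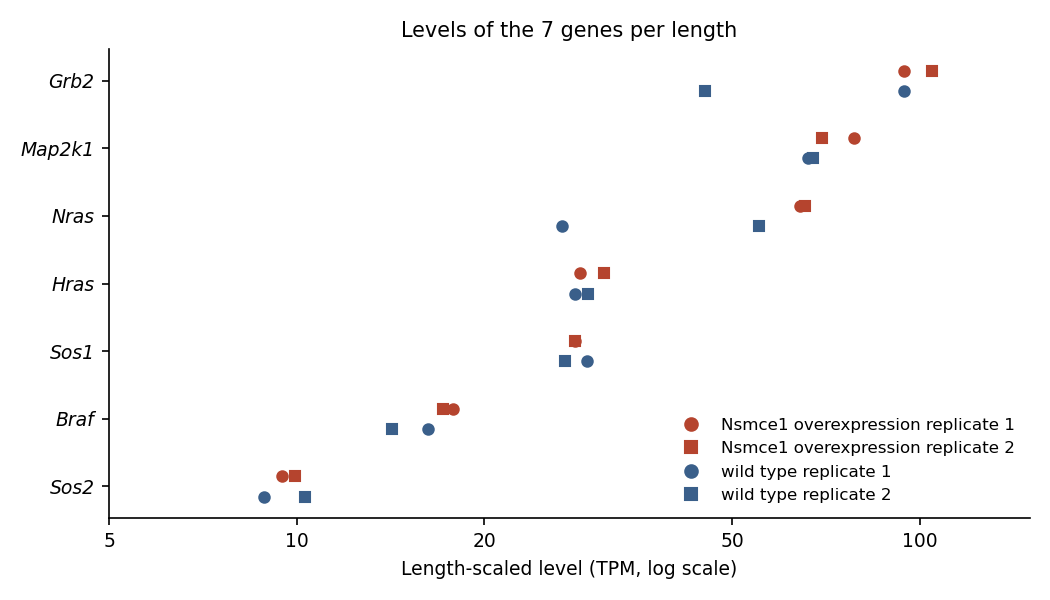
Length-scaled levels (TPM, log axis) of the 7 genes, ordered by their median, with 1 point per library (red, Nsmce1 overexpression; blue, wild type; circles, replicate 1; squares, replicate 2). Grb2 is highest by its median and Sos2 lowest at 8.86 to 10.3 TPM, and Grb2 and Nras each have 1 wild type point far to the left.

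Other kinases of the cascade were measured for comparison. Map2k2, which encodes MEK2, had 4032 and 4394 normalised reads in overexpressing and 3500 and 3980 in wild type cells. Its log2 fold change was 0.17 (limma adjusted p = 0.718). It lies on chromosome 10, where the 752 tested genes had a median of 0.14 on the log2 scale, and its value was 0.033 once chromosome medians were removed. The median of the 448 tested genes of chromosome 16 was 0.17. The 7 genes lie on other chromosomes, whose medians ran from -0.032 to 0.035. Mapk3, encoding ERK1, had 6281 and 5517 normalised reads in overexpressing and 5789 and 5538 in wild type cells, with a log2 fold change of 0.06 (limma adjusted p = 0.909). Araf had 2441 and 2255 in overexpressing and 2603 and 2193 in wild type cells, with a log2 fold change of -0.03 (limma adjusted p = 0.976). None of these 3 genes was called.

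Across 14 lists of other genes of the pathway, 161 of 194 genes were tested, and 1 was called as higher and 0 as lower. At an unadjusted limma p under 0.05 there were 22 or 13.7%, beside the 7.92% of all tested genes, a difference that was not tested. The called gene was Crk, an adaptor that binds tyrosine-phosphorylated proteins as Grb2 does. It rose to 7146 and 7515 normalised reads in overexpressing cells, against 2089 and 1991 in wild type cells. The limma log2 fold change was 1.84, with an SE of 0.0779 and an adjusted p of 0.00119. The call was lost without wild type replicate 1 (1.88, limma adjusted p = 0.0686) and in limma without a variance trend, and the adjusted p ran from 0.000135 to 0.0853 over all alternatives. Over the 161 genes 99 values lay above and 62 below 0, around a median of 0.04.

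Upstream of Grb2, the 10 tested receptor tyrosine kinases had 7 above and 3 below 0 (median 0.12), and 0 were called, with 2 at an unadjusted limma p under 0.05. These were Met, the hepatocyte growth factor receptor, at 3996 and 3922 normalised reads in overexpressing and 3256 and 2832 in wild type cells (log2 fold change 0.38), and Erbb3 at 0.39. The 18 tested growth factor ligands had 12 above and 6 below 0 (median 0.12), with 0 called and 2 under that unadjusted p, Fgf7 at 0.34 and Nrg1 at -0.25. Among 19 tested adaptors beside Grb2, 15 were above and 4 below 0 (median 0.12), and 6, Crk among them, had an unadjusted limma p under 0.05. Of the 19, 7 were higher and 1 lower in both overexpression libraries than in both wild type libraries. Over all tested genes 20.8% were higher in both, and the share lower in both was not counted. The difference from that share was not tested. Cblb, a ubiquitin ligase that acts on activated receptors, stood at 0.51 (limma adjusted p = 0.289), and at 0.34 with chromosome medians removed. Erbb3 and Cblb lie on chromosomes 10 and 16, and Erbb3 stood at 0.25 after that removal.

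At the level of Ras, Sos1 and Sos2 were the main exchange factors measured. Of 6 others only Rasgrp4 was tested, at 4.21 to 16 normalised reads per library. The 13 tested Ras relatives had 10 above and 3 below 0 (median 0.06), with 0 called and 2 at an unadjusted limma p under 0.05, Rala at 0.24 and Rap1b at 0.20. Rap1b lies on chromosome 10 and stood at 0.057 with chromosome medians removed. The 8 tested Ras GTPase activating proteins, which switch Ras off, divided into 4 and 4 (median 0.03), with Rasa3 at -0.22 and Rasa4 at 0.12. The 11 enzymes and carriers of Ras lipid modification had 7 above and 4 below 0 (median 0.03), with Lypla2, a thioesterase, at -0.21 and the palmitoyltransferase Zdhhc9 at -0.16.

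Around and below Braf and Map2k1, 16 tested genes listed as scaffolds and modulators divided into 8 and 8 (median 0.00). Mob4, whose role in this cascade was not checked, stood at -0.50. It had 1081 and 1380 normalised reads in overexpressing and 1460 and 2045 in wild type cells. The phosphatase subunit Ppp1cb stood at 0.14. Of 13 tested ERK substrates, 8 were above and 5 below 0 (median 0.01). The transcription factor Elk3 stood at 0.25 (0.11 once chromosome medians were removed) and Myc at -0.37 (limma adjusted p = 0.462 and 0.549). Other Ras effectors had 7 above and 7 below 0 (median -0.01). Rgl3, an exchange factor for Ral, had 132 and 135 normalised reads in overexpressing and 240 and 234 in wild type cells (log2 fold change -0.82, limma adjusted p = 0.203), and Rgl1 stood at -0.33. Of 14 tested genes of the parallel MAP kinase pathways, 8 were above and 6 below 0 (median 0.02). Map2k7, which encodes a kinase that phosphorylates JNK, stood at -0.75 and Map3k7, which encodes TAK1, at 0.45, each with a limma adjusted p of 0.168. No gene of these 4 lists was called, while 8 had an unadjusted limma p under 0.05.

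Genes that ERK signalling is known to induce were not called in either direction. Of the 10 transcriptional targets, 4 were above and 6 below 0 (median log2 fold change -0.10). Ccnd1, encoding cyclin D1, had 2346 and 2330 normalised reads in overexpressing and 3002 and 2925 in wild type cells. Its log2 fold change was -0.34 (limma, SE 0.0770, adjusted p = 0.303). It was the 1 target with an unadjusted limma p under 0.05. Phlda1, Etv4 and Epha2 also lay lower in both overexpression libraries, with log2 fold changes of -0.21, -0.30 and -0.14 and limma adjusted p-values from 0.701 to 0.737. Etv4 had 161 and 145 normalised reads in overexpressing and 189 and 187 in wild type cells, and Epha2 had 1098 and 1134 in overexpressing and 1229 and 1234 in wild type cells. Epha4, an ephrin receptor gene, lay higher in both, at 589 and 464 in overexpressing and 428 and 432 in wild type cells (0.28). Of all tested genes 20.8% lay higher in both, and the share lower in both was not counted, so nothing is read from these separations. The Sprouty and DUSP genes, which restrain the pathway, overlapped between the groups. Spry2 had 374 and 346 normalised reads in overexpressing and 290.5 and 356 in wild type cells (0.16). Spry4 stood at -0.14 (SE 0.527) from few reads, 26 and 11.7 in overexpressing and 23.9 and 15.8 in wild type cells. Dusp4 stood at 0.09 (SE 0.226) and Dusp6 at -0.05 (SE 0.171). Dusp6, a phosphatase of ERK, had 424 and 317 normalised reads in overexpressing and 376 and 382 in wild type cells. Etv5 stood at 0.11, and at -0.056 with chromosome medians removed, which moved Phlda1 to -0.35 and Dusp6 to -0.19. Of 9 further feedback inhibitors, 5 were above and 4 below 0 (median 0.01), with Dusp1 at -0.25, Spred3 at 0.21 and 0 called or under an unadjusted limma p of 0.05.

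**Figure D4:**
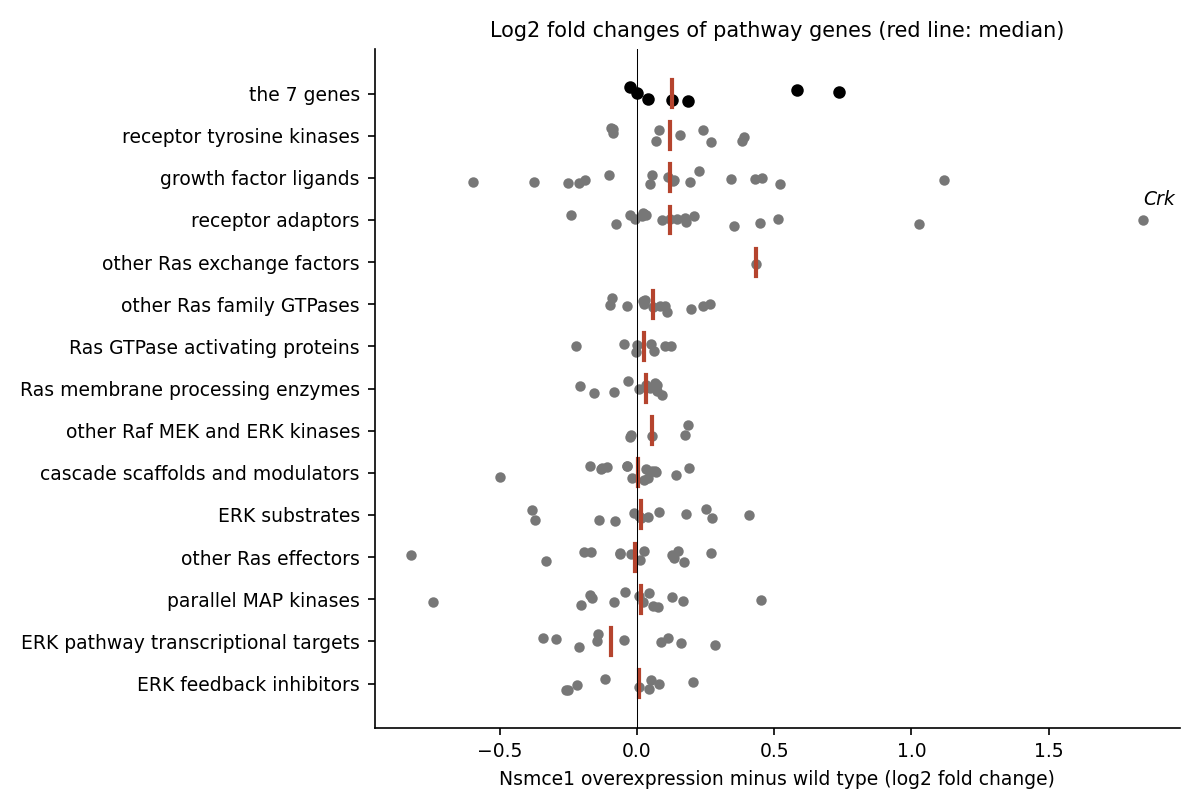
Log2 fold changes of Nsmce1 overexpression over wild type (horizontal axis) for the 7 genes (black) and the tested genes of 14 pathway lists (grey), 1 point per gene, with a red line at the median of each list. Crk at 1.84 is the called gene, and the medians of the lists with 5 or more tested genes lie between -0.10 and 0.12.

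By the Euclidean distance of centred log2 values over the 4 libraries, among 167 other genes of the lists and members, the nearest to Grb2 was Insr, the insulin receptor gene, at 0.52. Insr had 1777 and 2886 normalised reads in overexpressing and 2765 and 1327 in wild type cells, so it shared the low wild type replicate 2 but was also low in overexpression replicate 1. The nearest to Nras was Flt1 at 0.58, from fewer than 20 normalised reads per library. The other 5 genes had nearer neighbours, at distances from 0.016 for Hras with Ywhah to 0.088 for Map2k1 with Mras. By this measure any genes that are steady over the libraries lie close together, and a gene with a wide gap lies far from them. The larger distances of Nras and Grb2 thus restate their gaps. Among the 16 tested genes that overlap the 7 or lie next to them, the lowest limma adjusted p was 0.626, for the pseudogene Gm5905 beside Hras.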

How the data were processed

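The deposited table holds 1 log2 value per gene and library, which the authors made from normalised read counts plus 1, as worked out from the values. HISAT, Cufflinks and the build mm9 are named in the submitters' processing notes. The assignment of reads to genes is not described in the sources used here. With the log2 undone, 100% of values in each library were whole multiples of 1 step (tolerance 0.001 read), which gave the whole reads. Annotation came from GENCODE M21 (GRCm38) by Ensembl identifier.

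limma 3.58.1 in R 4.3.3, with a mean-variance trend and group as the only term, was fitted to log2(value + 1) over all 4 libraries and 15540 genes with a mean of at least 10 normalised reads. P-values are two-sided and adjusted over all tested genes by Benjamini-Hochberg, at a threshold of 0.05. Changes of low genes are understated on this scale. An exact permutation test of 2 against 2 libraries cannot go below p = 0.333, so calls rest on limma's pooled variance. Counting intervals are exact 95% Poisson limits and cover counting error only. Replicates differed by far more than counting error. The mean chi-square per gene was 16.9 between the wild type and 23.0 between the overexpression libraries. The intervals are therefore too narrow for comparing libraries. Only the scaling to library totals and the limma fit were tested on simulated counts. Those counts had a dispersion set by the mean and no outlying libraries, unlike the values of Nras and Grb2. Read recovery, annotation and the lists were not part of that test. The members and lists were chosen with earlier results of these data known. Named genes were the members, Nsmce1, called genes and the 2 smallest p of each list, cascade kinases, ERK targets, neighbours, and nearest patterns, and some of these are not reported here.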

Additional observations from a re-analysis of the deposited data

How the results depend on the processing

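Over 15 alternatives, 99 of 105 log2 fold changes of the 7 genes moved by less than the replicate spread (1 SD from limma). Part of this was fixed in advance. A change of filter or trend, robust variances or a block by replicate number leaves these values as they were. The other 6 of the 105 came from leaving out a wild type library. Over the libraries left out, Nras ranged from 0.18 to 1.29, Grb2 from 0.083 to 1.09 and Sos2 from -0.14 to 0.14. With chromosome medians removed Sos2 stood at -0.035, against 5.61e-05. None of the 7 was called in any fit that kept all 4 libraries, though 2 had an unadjusted limma p under 0.05 with the replicate block. The share of all tested genes under that p was not counted for the replicate block, so nothing is read from the 2. The 30 calls over all genes became 16 with no filter, 18 with quantile normalization, 9 without a trend and 72 with robust variances. They were 60 with the replicate number as a block (replicate block), where same-numbered libraries share only a number: their deviations correlated with r = 0.006. The calls ranged from 2 (without wild type replicate 1) to 75 (without Nsmce1 overexpression replicate 2) when a library was left out, with 9 without wild type replicate 2 and 51 without Nsmce1 overexpression replicate 1. The 1 called pathway gene, Crk, became 0 in limma without a trend (adjusted p = 0.0853; 11 list genes at an unadjusted p under 0.05). With libraries left out the count was 0 to 2, where the second gene was Rps6ka3 without Nsmce1 overexpression replicate 2. In these fits 1 group holds a lone library, assumed to vary like the other group. The cause of these shifts was not tested. With 2 libraries a group and a median SE of 0.133 on the log2 scale, an uncalled gene can still have changed.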

Other observations

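Of 147 genes of the pathway lists with a mean of at least 100 normalised reads, 3 had a gap of at least 2-fold inside a group, and they are named after their values were seen. Fgf2, a growth factor that acts through FGF receptors, had 46 and 381 normalised reads in overexpressing and 377 and 24.2 in wild type cells. Rps6ka3, which encodes the ERK substrate RSK2, had 2391 and 5426 in overexpressing and 4838 and 4565 in wild type cells. Insr was the third, with the values given beside Grb2. In Fgf2 and Insr, overexpression replicate 1 and wild type replicate 2 were the low libraries, so the groups overlapped.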
